A study of Mus musculus with 16 samples.

Results

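Gene deserts, here taken as consecutive 500-kb bins of chromosomes 1 to 19 that overlap no protein-coding gene body of the RefSeq annotation (GRCm38), were compared for 2 histone modifications in mouse embryos. Of 4930 autosomal bins, 887 held no protein-coding gene body. Of these, 96 bins without a peak in any of the 4 deposited lists were dropped, all of them within the first 3 Mb of a chromosome, which left 791 desert bins among 4808 bins with a peak (16.5%). The desert bins spanned 395 Mb, and the 4017 gene-bearing bins with a peak spanned 2005 Mb. Because the last step of this choice used the peak lists, the presence of some peak in every desert bin is not a finding.

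The embryos were late 2-cell embryos at 36 h after fertilization, and ultra-low-input native ChIP-seq (ULI-NChIP-seq, immunoprecipitation of nuclease-digested chromatin from very few cells) was used for H3K27ac and H3K4me3. Zygotes of the control group had received H2O, and those of the mutant group mRNA of an Hdac1 mutant. Each mark and condition had 2 immunoprecipitation and 2 input libraries, 16 libraries in all, but a single peak list serves both immunoprecipitation libraries of a group. Every value below therefore describes 4 lists, with no replicate error, no test between conditions and an unknown sequencing depth. The labels name no mouse strain, no further genotype and no mutated residue of Hdac1. Since the control group received no mRNA, an effect of the mutant protein and an effect of injected mRNA cannot be told apart. The lists come from whole embryos, so a change in every nucleus and a change in the share of nuclei that carry a mark cannot be told apart either.

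Acetylation of histone H3 at lysine 27 (H3K27ac) marks promoters and enhancers in use, while trimethylation at lysine 4 (H3K4me3) is typical of promoters that are active or poised. Hdac1 encodes a deacetylase that removes acetyl groups from histones and acts in corepressor complexes. Gene deserts are long stretches without protein-coding genes. They can hold distant enhancers, long non-coding RNA (lncRNA) genes, pseudogenes and repeats, and in the mouse oocyte H3K4me3 also forms broad domains away from promoters that are largely removed by the late 2-cell stage.

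The deserts were not empty of annotation. They touched 983 lncRNA genes in 453 bins, 965 pseudogenes in 523 bins, 43 miRNA genes in 29 bins and 258 immunoglobulin or T-cell receptor V segments in 11 bins, and 78 bins held no RefSeq gene of any type. The median distance of a desert bin to the nearest protein-coding gene was 266 kb, and the largest was 2014 kb. In 198 bins the nearest coding gene lay within 100 kb, and in 71 it lay over 1 Mb away. Deserts made up the largest share of the bins on chromosome 3 (22.3%) and the smallest on chromosome 19 (8.55%).

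Promoters of lncRNA genes are the desert sequences shown here, and 672 of their 826 windows overlapped no peak of any list. Of the lncRNA genes, 709 had a promoter in the RefSeq promoter table (GRCm38.p6), whose windows reach from 250 bases before to 50 bases after the start of a gene and are printed 5′ to 3′ on the strand of the gene, with every CpG dinucleotide in capitals. The promoter of 2810429I04Rik (chr13:3477982-3478281, + strand) is shown because it was the only window of the 826 that overlapped a peak in all 4 lists.
2810429I04Rik: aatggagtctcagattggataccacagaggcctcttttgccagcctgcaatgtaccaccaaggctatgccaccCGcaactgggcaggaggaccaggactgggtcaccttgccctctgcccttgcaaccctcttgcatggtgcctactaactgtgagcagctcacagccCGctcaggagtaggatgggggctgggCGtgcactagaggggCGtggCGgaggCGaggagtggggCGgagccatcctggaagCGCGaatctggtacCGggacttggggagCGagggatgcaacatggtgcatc
The promoters of 1110002J07Rik (chr10:66920335-66920634, - strand) and Gm32791 (chr8:30959650-30959949, - strand) are shown because, of the promoters with H3K4me3 in both conditions and H3K27ac in neither, they lay under the widest peaks, judged by the narrower of the pair.
1110002J07Rik: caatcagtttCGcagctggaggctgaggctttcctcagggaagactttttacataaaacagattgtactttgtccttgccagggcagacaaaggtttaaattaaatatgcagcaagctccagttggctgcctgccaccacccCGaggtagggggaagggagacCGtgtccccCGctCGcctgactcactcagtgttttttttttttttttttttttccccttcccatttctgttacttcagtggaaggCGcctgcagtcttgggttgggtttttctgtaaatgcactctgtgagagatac
Gm32791: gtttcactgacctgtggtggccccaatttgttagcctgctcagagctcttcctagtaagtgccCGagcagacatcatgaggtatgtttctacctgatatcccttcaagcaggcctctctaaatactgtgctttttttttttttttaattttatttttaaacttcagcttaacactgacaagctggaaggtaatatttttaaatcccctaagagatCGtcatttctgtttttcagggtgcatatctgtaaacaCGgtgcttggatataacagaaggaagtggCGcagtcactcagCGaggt
The promoters of Gm33753 (chr2:61452692-61452991, + strand) and Gm42340 (chr4:142641611-142641910, + strand) are the counterpart, with H3K27ac in both conditions and no H3K4me3.
Gm33753: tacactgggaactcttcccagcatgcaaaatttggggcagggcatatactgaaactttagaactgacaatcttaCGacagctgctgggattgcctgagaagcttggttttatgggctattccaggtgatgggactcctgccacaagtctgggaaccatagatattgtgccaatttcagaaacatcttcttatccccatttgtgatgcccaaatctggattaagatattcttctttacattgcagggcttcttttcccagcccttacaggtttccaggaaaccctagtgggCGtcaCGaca
Gm42340: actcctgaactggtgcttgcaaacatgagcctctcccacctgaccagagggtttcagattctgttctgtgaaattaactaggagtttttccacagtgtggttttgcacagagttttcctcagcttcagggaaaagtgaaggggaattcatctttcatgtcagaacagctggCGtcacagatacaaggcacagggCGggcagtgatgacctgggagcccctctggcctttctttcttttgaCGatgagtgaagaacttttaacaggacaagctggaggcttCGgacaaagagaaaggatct
The promoters of Gm35779 (chr4:131485406-131485705, - strand) and Gm40952 (chr13:53504337-53504636, - strand) lay under the widest H3K4me3 peak found at such a promoter in the control list alone and in the mutant list alone, again with no H3K27ac.
Gm35779: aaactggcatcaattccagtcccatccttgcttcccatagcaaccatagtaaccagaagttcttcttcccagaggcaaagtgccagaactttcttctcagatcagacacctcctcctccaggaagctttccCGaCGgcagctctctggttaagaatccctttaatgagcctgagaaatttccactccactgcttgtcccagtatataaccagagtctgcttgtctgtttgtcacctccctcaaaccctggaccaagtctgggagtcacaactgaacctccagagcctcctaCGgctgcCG
Gm40952: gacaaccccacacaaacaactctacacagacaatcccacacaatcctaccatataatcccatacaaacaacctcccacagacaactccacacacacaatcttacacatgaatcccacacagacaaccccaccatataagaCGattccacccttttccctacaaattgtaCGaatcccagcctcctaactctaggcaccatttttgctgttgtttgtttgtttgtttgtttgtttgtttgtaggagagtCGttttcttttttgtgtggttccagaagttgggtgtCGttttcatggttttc
The window of 2810429I04Rik held 11 CpG dinucleotides and 61.3% G or C, whereas the other 6 windows held 3 to 6 CpG dinucleotides. The median of all 826 desert lncRNA promoter windows was 2 CpG dinucleotides and 43.7% G or C, against 7 and 53.0% over all 31396 autosomal promoter windows of the table.

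The deserts were thinly marked. H3K27ac peaks covered 1.53% of desert sequence in the control list and 2.01% in the mutant list, next to 11.8% and 11.4% of gene-bearing bins. H3K4me3 peaks covered 1.44% of desert sequence in the control list and 1.63% in the mutant list, next to 12.02% and 13.3% of gene-bearing bins. Deserts were thus covered at 0.130 and 0.176 times the level of gene-bearing bins for H3K27ac, and at 0.120 and 0.123 times for H3K4me3, control first. They formed 16.5% of the compared sequence but held 2.505% and 3.36% of the H3K27ac covered bases and 2.31% and 2.36% of the H3K4me3 covered bases.

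The H3K27ac covered length of the deserts was larger in the mutant list, at 7.96 Mb against 6.06 Mb in control, a ratio of 1.31. In gene-bearing bins it was 229 Mb against 236 Mb, a ratio of 0.972, so the ratio in deserts was 1.35 times that in gene-bearing bins. For H3K4me3 the desert length was 6.44 Mb in mutant against 5.69 Mb in control, a ratio of 1.13, next to 1.11 in gene-bearing bins. The order of these H3K4me3 ratios turned under alternatives: the desert ratio was 0.945 times the gene-bearing ratio in bins of 1 Mb, 0.908 times in bins without any gene and 0.960 times in bins at least 100 kb from coding genes. The mutant H3K27ac list held more peaks in deserts, and when its widest peaks were taken in the same number as the control list holds, the desert ratio was 1.02 and the desert ratio divided by the gene-bearing ratio was 1.11. That cut took narrow peaks from the mutant list alone. No direction can be given for H3K27ac in gene-bearing bins, where closing gaps of less than 1 kb turned the ratio to 1.004.

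The larger H3K27ac ratio was not limited to bins without coding genes. In bins with 1 coding gene the ratio was 1.43, in bins with 2 to 4 coding genes 1.17, in bins with 5 to 9 it was 0.949, and in bins with 10 or more it was 0.845. The H3K4me3 ratios in the same order were 1.29, 1.21, 1.09 and 1.04. The 243 gene-bearing bins with less than 5% of their length in coding gene bodies, just outside the rule, had ratios of 1.36 for H3K27ac and 1.21 for H3K4me3. The 120 desert bins with a coding gene within 50 kb, just inside the rule, had ratios of 1.43 and 1.29. For H3K27ac the deserts differed more from bins with 10 or more genes than from bins with 1 gene, and for H3K4me3 they differed more from bins with 1 gene (1.13 and 1.29) than from bins with 10 or more (1.04).

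**Figure D1:**
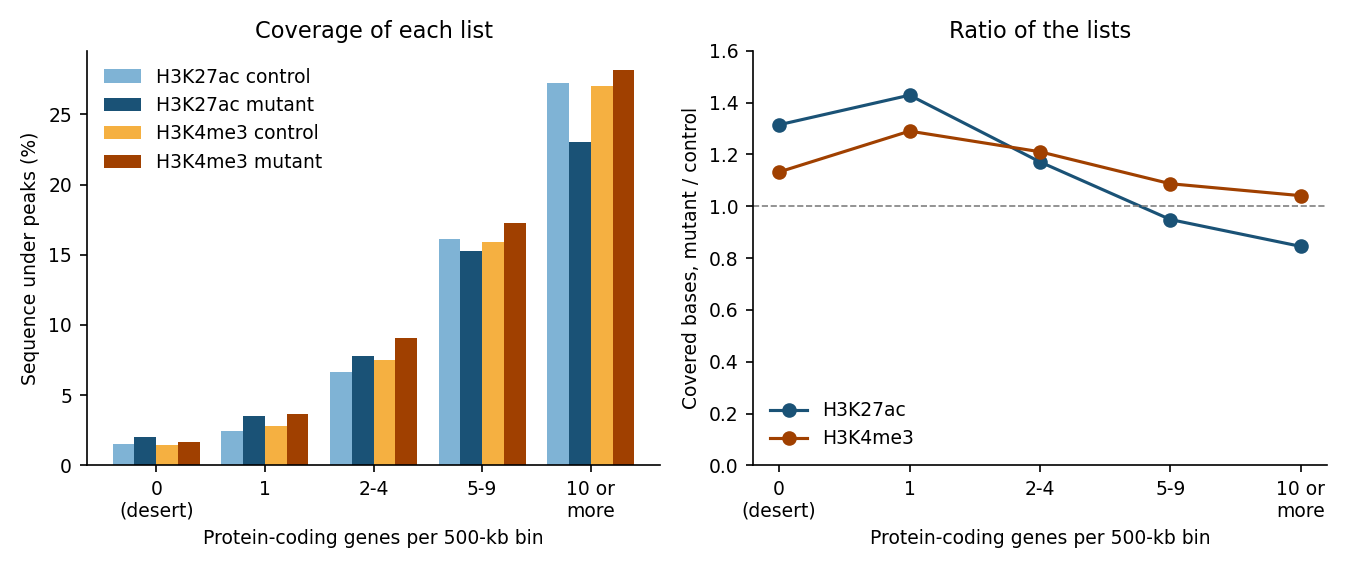
Share of sequence under peaks in percent (left, 1 bar per list) and the ratio of covered bases, mutant to control (right, 1 line per mark), for bins grouped by their number of protein-coding genes. Coverage rises from under 2.1% in deserts to over 23% in bins with 10 or more genes, and the H3K27ac ratio is 1.31 in deserts, 1.43 with 1 gene and 0.845 with 10 or more.

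Most desert bins carried little of either mark. The covered length per bin had a median of 5.61 kb for H3K27ac in control (quartiles 2.91 and 10.2, highest 115 kb) and 7.12 kb in mutant (quartiles 3.09 and 13.8, highest 70.6 kb). For H3K4me3 the median was 4.88 kb in control (quartiles 2.18 and 9.50, highest 84.5 kb) and 4.59 kb in mutant (quartiles 1.85 and 9.88, highest 88.0 kb). The H3K4me3 median was thus lower in the mutant list although the total was higher. The 79 most covered bins held 34.6% of the H3K4me3 desert bases in control and 41.5% in mutant, and for H3K27ac the corresponding shares were 31.2% and 32.2%. H3K4me3 covered bases were therefore gathered in fewer bins in the mutant list, in which 112 bins held 50% of them, against 141 bins in control. Desert bins with at least 20 kb of H3K27ac numbered 40 (5.06%) in control and 102 (12.9%) in mutant, against 48.6% and 58.9% of all 4808 bins. Those with at least 50 kb numbered 4 and 8, against 30.6% and 33.8% of all bins. For H3K4me3, 47 deserts (5.94%) in control and 77 (9.73%) in mutant had at least 20 kb, against 54.8% and 60.6% of all bins. At least 50 kb of H3K4me3 was found in 4 and 12 deserts, against 34.3% and 39.2% of all bins. Both in deserts and over all bins more bins thus passed these limits in the mutant lists, while the most covered desert of the H3K27ac lists had 115 kb in control and 70.6 kb in mutant.

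H3K27ac coverage was higher in mutant in 445 desert bins (56.3%, against 55.6% of all 4808 bins), lower in 345 (43.6%, against 44.3%) and equal in 1, so the share of bins in either direction was near that of all bins. For H3K4me3, 406 bins were higher (51.3%, against 62.9%), 382 lower (48.3%, against 36.8%) and 3 equal. H3K27ac was present in both conditions in 780 bins, in control alone in 10 (1.26%, against 0.52% of all bins) and in mutant alone in 1 (0.126%, against 0.146%). H3K4me3 was present in both in 745 bins, in control alone in 26 (3.29%, against 0.936%), in mutant alone in 17 (2.15%, against 0.686%) and in neither in 3.

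Larger shifts were counted as bins in which 1 list covered at least 2 times the bases of the other and at least 5 kb. For H3K27ac, 193 desert bins (24.4%, 95% Wilson interval 21.5 to 27.5) were higher in mutant, and the same rule called 20.7% of all 4808 bins. Lower in mutant were 88 desert bins (11.1%, 9.12 to 13.5), against 5.82% of all bins. For H3K4me3, 108 desert bins (13.7%, 11.4 to 16.2) were higher, against 9.38% of all bins, and 96 (12.1%, 10.04 to 14.6) were lower, against 4.47% of all bins. This H3K4me3 balance turned in deserts with a limit of 3-fold, where 42 were higher and 60 lower, against 2.72% and 2.25% of all bins. It also turned in bins of 1 Mb, with 13 higher and 18 lower against 3.9% and 1.82% of all 1-Mb bins. Of the 78 deserts without any gene, 6 were higher and 7 lower, too close to give a direction, against 9.38% and 4.47% of all bins. Under the 2-fold rule, bins with 1 coding gene were called higher more often than deserts, at 32.0% for H3K27ac and 15.3% for H3K4me3. They were called lower less often, at 7.16% and 6.83%. The intervals cover counting error over bins only, and bins of 1 list are not replicates. With mutant H3K27ac peaks reduced to the number of control peaks by width, 126 desert bins were higher and 144 lower. This setting dropped the narrowest mutant peaks and left the control list whole. Peaks of 500 bp or less were 46.5% of mutant H3K27ac peaks in deserts and 26.1% in gene-bearing bins, so it bears more on deserts. Over all bins the same setting called 15.1% higher and 9.67% lower, so the lists as a whole also held fewer higher and more lower bins than without the reduction.

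Desert and gene-bearing bins were also compared at like coverage, and the outcome depended on the mark and the class. Among bins with a mean H3K27ac coverage of 10 to 20 kb, 37.3% of 209 desert bins and 41.1% of 654 gene-bearing bins were higher in mutant, with ratios of covered bases of 1.44 and 1.58, and 7.66% and 6.42% were lower. Among bins with 5 to 10 kb, 32.9% of 243 desert bins and 37.9% of 443 gene-bearing bins were higher, and 15.6% and 11.96% were lower. Among bins with 20 to 50 kb, 24.5% of 49 desert bins and 27.6% of 1032 gene-bearing bins were higher and 0% and 4.26% lower, but here the ratio was larger in deserts, at 1.55 against 1.32. For H3K4me3 at 5 to 10 kb, 20.5% of 219 desert bins were higher and 20.5% lower, against 16.1% and 13.6% of 354 gene-bearing bins. At 10 to 20 kb, 18.9% of 127 desert bins were higher and 6.30% lower for H3K4me3, against 17.3% and 4.88% of 533 gene-bearing bins. At 20 to 50 kb, 25.5% of 51 desert bins were higher and 3.92% lower, against 13.5% and 1.21% of 992 gene-bearing bins. Under 5 kb, where the minimum of 5 kb limits what can be called, 8.01% of 287 desert bins were higher and 11.5% lower for H3K27ac, against 11.3% and 8.45% of 355 gene-bearing bins. For H3K4me3 the shares under 5 kb were 6.67% and 10.3% of 390 desert bins, against 7.63% and 8.16% of 380 gene-bearing bins.

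The bins also kept their order less well than gene-bearing bins. Across the 791 desert bins, Spearman's rho between control and mutant coverage was 0.553 for H3K27ac and 0.676 for H3K4me3, against 0.907 and 0.958 across the 4017 gene-bearing bins. Between both marks within a condition, rho across desert bins was 0.514 in control and 0.713 in mutant, against 0.901 and 0.913 across gene-bearing bins. These coefficients are descriptions over bins, which share the libraries, the depth and the mappability of a region, and the range of coverage was narrower in deserts. Of the bins called for both marks, 43 were higher in mutant for both (5.44% of deserts, against 4.43% of all bins), or 22.3% of the deserts higher for H3K27ac and 39.8% of those higher for H3K4me3. Both marks were lower in 17 deserts (2.15%, against 0.874%). The marks differed in direction in 15 deserts with higher H3K27ac and lower H3K4me3 (1.90%, against 0.77%) and in 7 with the reverse (0.885%, against 0.458%).

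The chromosomes differed in size of the H3K27ac ratio but mostly not in direction. The desert H3K27ac ratio was above 1 on 18 of 19 chromosomes, with a median of 1.29, and was above the gene-bearing ratio of the same chromosome on 18 of 19. It was lowest on chromosome 17 (0.895) and highest on chromosome 19 (2.43), which has only 10 desert bins, and on chromosome 18 (2.13), which has 39. The exception in the comparison with gene-bearing bins was chromosome 3, with 1.050 in deserts and 1.054 in gene-bearing bins. The desert H3K4me3 ratio was above 1 on 13 of 19 chromosomes (0.760 on chromosome 17 to 1.37 on chromosome 18) and above the gene-bearing ratio on 10 of 19. Gene-bearing bins had an H3K4me3 ratio above 1 on all 19 chromosomes.

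**Figure D2:**
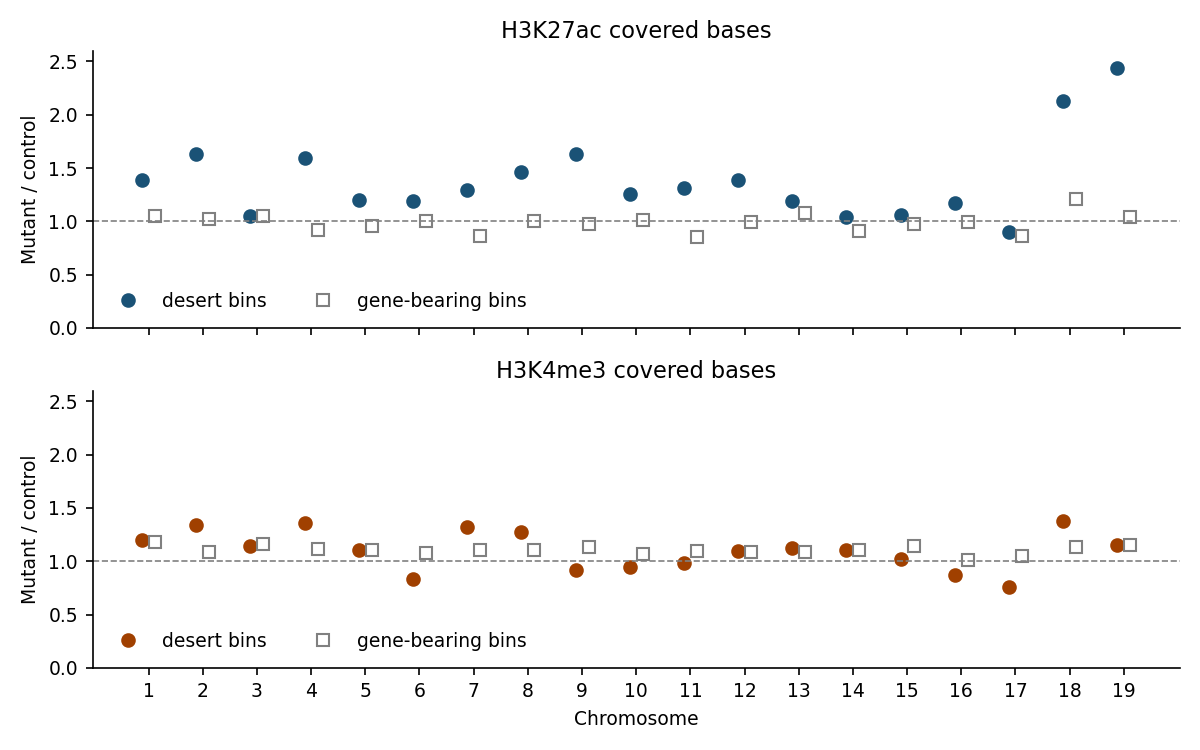
Ratio of covered bases, mutant to control, on each autosome for H3K27ac (top) and H3K4me3 (bottom); filled circles are desert bins and open squares gene-bearing bins. The H3K27ac circles lie above the squares on 18 of 19 chromosomes, and the H3K4me3 circles on 10 of 19.

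Within the deserts, coverage was lower the farther the sequence lay from coding genes. Desert sequence within 50 kb of a coding gene was covered by H3K27ac at 5.80% in control and 5.90% in mutant, and by H3K4me3 at 5.75% and 6.05%. Over 1000 kb from any coding gene the values were 1.28% and 1.38% for H3K27ac and 0.952% and 0.789% for H3K4me3. The H3K27ac ratio was largest between 100 and 250 kb, at 1.505, and was 1.02 within 50 kb and 1.08 beyond 1000 kb. The H3K4me3 ratio was 1.44 between 50 and 100 kb, and it was below 1 at distances of 500 to 1000 kb (0.967) and beyond 1000 kb (0.829). The most remote desert sequence thus had less H3K4me3 in the mutant list. Among the 225 whole bins that lie 500 kb or more from a coding gene, H3K4me3 was higher in mutant in 92 bins and lower in 132, whereas over all 4808 bins 62.9% were higher and 36.8% lower. H3K27ac was higher in 111 of the 225 bins and lower in 114, against 55.6% and 44.3% of all bins. In the 78 bins without any RefSeq gene the ratios were 1.25 for H3K27ac and 1.004 for H3K4me3. In the 3 desert bins that start at 3 Mb, both marks were lower in mutant in every bin, with ratios of 0.745 and 0.769.

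**Figure D3:**
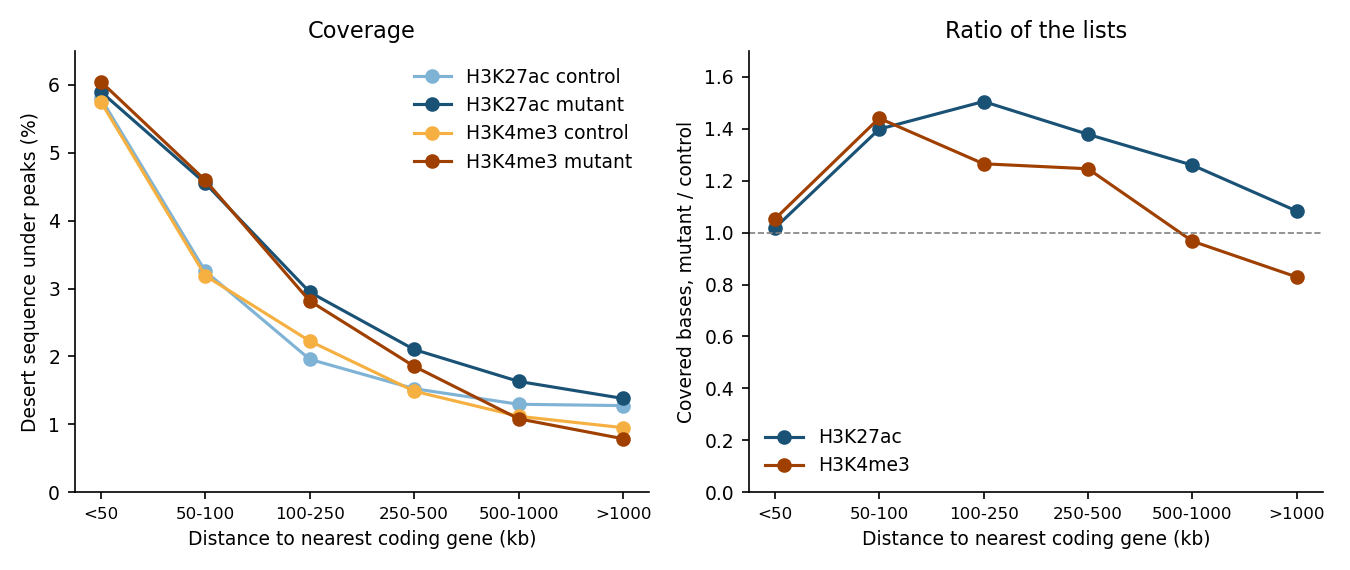
Percent of desert sequence under peaks (left, 1 line per list) and the ratio of covered bases, mutant to control (right, 1 line per mark), by distance to the nearest protein-coding gene in kb. Coverage falls from about 6% near coding genes to between 0.789% and 1.38% beyond 1000 kb, and the H3K4me3 ratio passes below 1 beyond 500 kb.

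The 791 desert bins formed 391 runs of neighbouring bins, of which 216 were single bins. Single bins had ratios of 1.43 for H3K27ac and 1.29 for H3K4me3, whereas the 303 bins in runs of 4 or more had ratios of 1.07 and 0.873. The longest run was 9 bins (chr14:88500001-93000000), between the protocadherin genes Pcdh20 and Pcdh9, which encode adhesion proteins. H3K27ac covered 57.3 kb of it in control and 56.7 kb in mutant, and H3K4me3 32.6 kb and 24.9 kb. A run of 8 bins (chr1:100500001-104500000) between Cntnap5b and the cadherin gene Cdh20 had 24.2 kb and 16.1 kb of H3K27ac and 10.5 kb and 15.3 kb of H3K4me3. Another run of 8 bins (chr18:26000001-30000000) between Celf4, which encodes an RNA-binding protein, and Pik3c3, a lipid kinase gene, had 40.96 kb and 93.3 kb of H3K27ac and 66.9 kb and 55.1 kb of H3K4me3. These 3 deserts did not share a direction for either mark.

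Desert peaks were narrow and the marks differed in which widths changed. Median H3K27ac peak widths in deserts were 465 bp (control) and 556 bp (mutant), against 1351 bp and 1172 bp in gene-bearing bins. The median H3K4me3 width was 709 bp and 773 bp, against 1804 bp and 1880 bp. H3K27ac peaks of 500 bp or less made up 52.3% of control and 46.5% of mutant desert peaks. H3K27ac peaks numbered 6074 and 9345, a ratio of 1.54, and H3K4me3 peaks 5068 and 5017, a ratio of 0.990, which came out above 1 in other bin grids. The peak number ratios of gene-bearing bins were 1.57 and 1.002, so the larger number of H3K27ac peaks was a feature of the whole list.

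Broad desert peaks were fewer for H3K27ac and more numerous for H3K4me3 in the mutant lists. H3K27ac peaks over 5 kb wide numbered 184 of 6074 (3.03%, 2.63 to 3.49) in control and 77 of 9345 (0.824%, 0.660 to 1.03) in mutant. H3K4me3 peaks over 5 kb wide numbered 98 of 5068 (1.93%, 1.59 to 2.35) in control and 179 of 5017 (3.57%, 3.09 to 4.12) in mutant. Above 10 kb there were 14 and 4 H3K27ac peaks and 5 and 19 H3K4me3 peaks, control first. H3K27ac peaks of 5 to 10 kb held 18.4% of the desert H3K27ac bases in control and 5.55% in mutant, and those of 1 to 2 kb held 18.8% and 29.7%. The longer H3K27ac length of the mutant list thus lay in narrower peaks: those of 1 to 2 kb covered 1.14 Mb in control and 2.36 Mb in mutant, and those of 5 to 10 kb 1.12 Mb and 0.442 Mb. The shift to narrower H3K27ac peaks was not limited to deserts. In gene-bearing bins peaks of 1 to 2 kb held 6.32% and 13.8% of the bases, and those over 10 kb 43.2% and 15.8%. The ratio of mean H3K27ac widths was 0.853 in deserts and 0.620 in gene-bearing bins. The number of broad H3K27ac peaks in deserts had a ratio of 0.418, against 0.812 in gene-bearing bins, and that of broad H3K4me3 peaks 1.83 against 1.23. Bins with 1 coding gene lay between, at 0.697 and 1.74.

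The H3K27ac width results depended on how lists were cut and joined. The ratio of the mutant to the control median width was 1.20 as deposited, and 0.954 with peaks under 500 bp dropped, so no direction of the median can be given. The share of broad H3K27ac peaks in mutant divided by that in control was 0.272 as deposited, 0.419 with gaps under 1 kb closed, and 0.661 with equal numbers of peaks. It was below 1 in each of these settings.

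The widest desert peak of each list was looked up. In the control H3K27ac list it spanned 20344 bp (chr17:16901849-16922192), overlapped no gene, and lay 82.9 kb from Gm51425; mutant H3K27ac peaks covered 12.6% of it. In the mutant H3K27ac list it spanned 14115 bp (chr16:46497384-46511498) and reached over the edge of its bin into Nectin3, which encodes a cell adhesion protein. In the control H3K4me3 list it spanned 14949 bp (chr3:21948340-21963288) within the lncRNA gene Gm31813 and was covered in full by mutant H3K4me3. In the mutant H3K4me3 list it spanned 19229 bp (chr13:31295627-31314855) between Exoc2, a gene of the exocyst complex, and Foxq1, a forkhead transcription factor gene, and control H3K4me3 covered 31.7% of it.

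Few desert peaks lay at the same place in both conditions. Of the control H3K27ac desert peaks, 13.4% (12.6 to 14.3) overlapped a mutant peak by at least 1 bp, and of the mutant peaks 9.77% (9.18 to 10.4) overlapped a control peak. For H3K4me3 the shares were 15.6% (14.7 to 16.7) and 15.3% (14.3 to 16.3). In gene-bearing bins the shares were 41.9% and 34.8% for H3K27ac and 50.8% and 47.8% for H3K4me3, where peaks were also wider and covered more of the sequence. Overlap in deserts was higher for wider peaks, from 4.25% of control and 4.42% of mutant H3K27ac peaks of 500 bp or less to 13 of 14 control and all 4 mutant peaks over 10 kb. For H3K4me3 it went from 5.62% and 4.11% to 4 of 5 and 17 of 19 peaks. At like width, control H3K27ac overlap was 4.25% in deserts and 12.9% in gene-bearing bins at 500 bp or less. It was 44.3% and 57.0% at 2 to 5 kb, 71.8% and 76.7% at 5 to 10 kb, and 92.9% and 93.6% above 10 kb. For control H3K4me3 it was 34.4% and 66.5% at 2 to 5 kb and 68.8% and 85.0% at 5 to 10 kb. The gap in control H3K27ac was thus smallest for the widest peaks. In bases, 0.934 Mb of H3K27ac was common to both conditions, or 15.4% of the control and 11.7% of the mutant desert bases, next to 44.3% and 45.6% in gene-bearing bins. For H3K4me3 it was 1.12 Mb, or 19.7% and 17.4%, next to 59.5% and 53.8%. At the level of bins, 366 of 791 deserts (46.3%) had no base of H3K27ac in common between conditions, against 21.2% of all bins. For H3K4me3 415 deserts (52.5%) had none, against 15.8% of all bins.

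**Figure D4:**
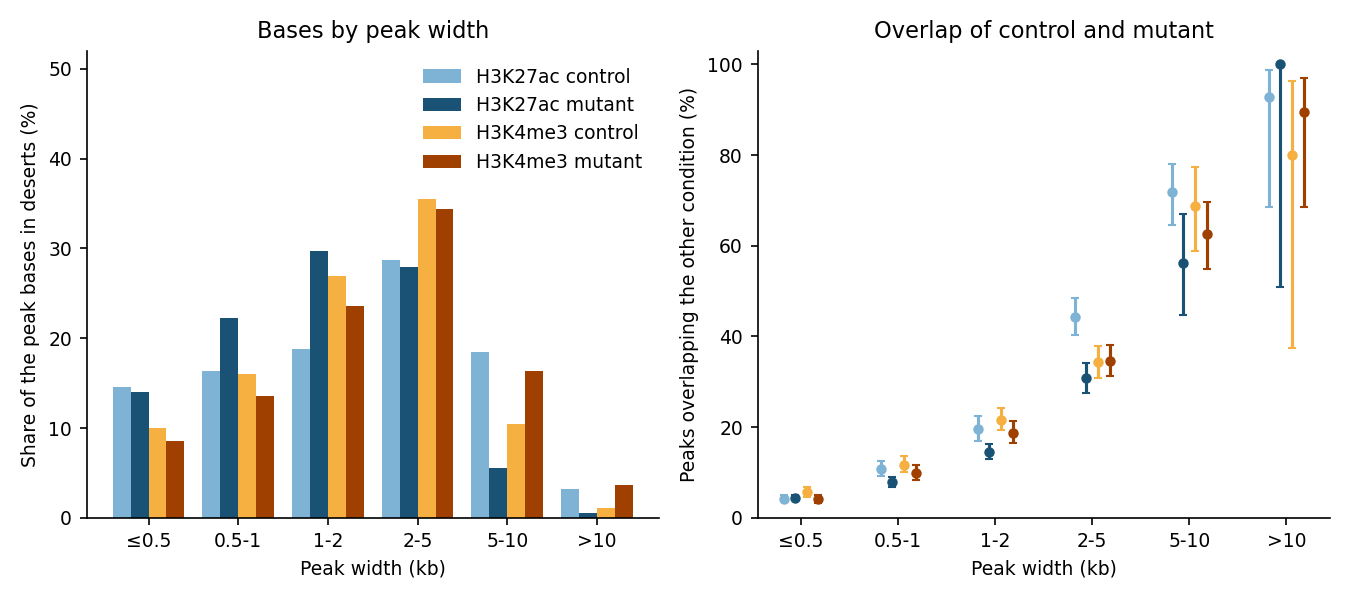
Share of the peak bases in deserts by peak width in kb (left) and share of desert peaks that overlap a peak of the same mark in the other condition (right), for the 4 lists; error bars are 95% Wilson intervals, which cover counting error only. Peaks of 5 to 10 kb hold 18.4% of H3K27ac bases in control and 5.55% in mutant, and overlap is under 6% for the narrowest class and at least 80% above 10 kb.

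Whether the marks overlapped less in the mutant lists depended on counting bases, peaks or bins. Bases under both marks amounted to 1.06 Mb of desert in control and 0.901 Mb in mutant, that is 18.6% and 14.0% of the H3K4me3 bases and 17.5% and 11.3% of the H3K27ac bases. In gene-bearing bins the share of H3K4me3 bases under both marks was 53.9% in control and 36.9% in mutant. Counted by peaks, 663 of 5068 H3K4me3 desert peaks (13.1%, 12.2 to 14.0) overlapped an H3K27ac peak in control and 872 of 5017 (17.4%, 16.4 to 18.5) in mutant, next to 42.7% and 40.8% of H3K4me3 peaks in gene-bearing bins. Of the H3K27ac desert peaks, 10.6% (9.87 to 11.4) overlapped an H3K4me3 peak in control and 9.95% (9.36 to 10.6) in mutant, next to 43.4% and 36.0% in gene-bearing bins. Counted by bins, 365 deserts (46.1%) in control and 415 (52.5%) in mutant held some base under both marks, against 77.4% and 81.7% of all 4808 bins. In deserts the mutant value was thus the higher both by H3K4me3 peaks and by bins. By width, all 14 control and all 4 mutant H3K27ac desert peaks over 10 kb overlapped an H3K4me3 peak of the same condition. Of those of 5 to 10 kb, 67.6% (60.3 to 74.2) did so in control and 46.6% (35.6 to 57.9) in mutant, and of those of 500 bp or less 3.24% and 4.88%. The H3K27ac shares in gene-bearing bins moved in the same directions, from 85.3% to 78.4% at 5 to 10 kb and from 11.1% to 12.8% at 500 bp or less. Above 10 kb they were 98.3% and 93.7%. For H3K4me3 peaks of 5 to 10 kb the share with an H3K27ac peak was 61.3% in control and 58.1% in mutant. In gene-bearing bins it was 75.5% and 69.2%. Bins with peaks of both marks, whether overlapping or not, numbered 770 in control and 752 in mutant, against 98.8% and 98.3% of all bins.

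Annotated non-coding genes of the deserts were examined next. The bodies of lncRNA genes were covered by H3K27ac at 1.72% in control and 2.69% in mutant, a ratio of 1.57, and by H3K4me3 at 2.23% and 2.59%, a ratio of 1.16. Pseudogenes went the other way, at 3.21% and 2.82% for H3K27ac and 4.23% and 3.38% for H3K4me3, with ratios of 0.877 and 0.800. Pseudogenes resemble other copies in the genome, so reads placed there are uncertain. Desert sequence outside any gene was covered at 1.51% and 1.958% by H3K27ac and at 1.35% and 1.53% by H3K4me3. The 453 desert bins with an lncRNA gene had ratios of 1.42 and 1.22, and the 338 bins without had ratios of 1.13 and 0.919. For H3K4me3 the bins without an lncRNA gene were thus less covered in the mutant list.

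Promoters of desert lncRNA genes seldom carried a peak, and none of those with a peak lay on chromosome 18. Among the 709 genes, 44 (6.21%, 4.66 to 8.23) had H3K4me3 at a promoter in control and 65 (9.17%, 7.26 to 11.5) in mutant, against 34% and 34.8% of all autosomal lncRNA genes. Of these, 19 had it in both conditions, 25 in control alone and 46 in mutant alone. Over all 9291 autosomal lncRNA genes, 25.9% had H3K4me3 in both conditions, 8.1% in control alone and 8.83% in mutant alone, and the desert shares of 2.68%, 3.53% and 6.49% were below these. H3K27ac was found at 35 desert lncRNA promoters (4.94%, 3.57 to 6.79) in control and at 31 (4.37%, 3.10 to 6.14) in mutant, against 17.7% and 19.5% of all autosomal lncRNA genes. Of these desert genes, 3 had it in both conditions (0.423%, background 8.94%), 32 in control alone (4.51%, background 8.78%) and 28 in mutant alone (3.95%, background 10.5%). Of lncRNA genes in gene-bearing bins, 36.3% had H3K4me3 at a promoter in control and 36.8% in mutant, and of coding genes 69.6% and 66.4% did.

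The printed promoters, most of them chosen for wide peaks, lay under peaks of the following widths. The H3K4me3 peak over the 1110002J07Rik promoter was 8527 bp wide in control and 9556 bp wide in mutant, and that over Gm32791 6336 bp and 6206 bp. The H3K27ac peak over Gm33753 measured 6417 bp and 5220 bp, and that over Gm42340 3334 bp and 2937 bp. At 2810429I04Rik the H3K27ac peak was 13069 bp wide in control and 4915 bp wide in mutant, and the H3K4me3 peak 2648 bp and 7498 bp, so that the widths differed in opposite directions. Its bin starts at 3 Mb, next to the unassembled start of chromosome 13, and 3 such bins belong to the deserts. The control H3K4me3 peak over Gm35779 measured 14436 bp, and mutant H3K4me3 peaks covered 52.7% of that peak without reaching the promoter window. The mutant H3K4me3 peak over Gm40952 measured 13090 bp.

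Promoters with H3K4me3 in both conditions were richer in CpG than desert lncRNA promoters without a peak. Their 22 windows, which belong to 19 genes, had a median of 6.5 CpG dinucleotides and 49.0% G or C, against 2 and 43.3% in the 672 windows without a peak in any list. The other 132 windows, with a peak in at least 1 list, had a median of 3 CpG dinucleotides and 45.7% G or C. The GC box GGGCGG, searched on both strands, was present in 18.2% of the 22 windows, 4.61% of the 672 windows and 36.0% of all autosomal promoter windows. GGATTA, the core bound by OBOX and related homeodomain proteins, was present in none of the 22 windows, 8.63% of the 672 and 7.06% of all. TCAAGG, the core bound by NR5A nuclear receptors, was present in 22.7%, 14.7% and 14.4% in the same order. Both motifs are named because these factor families are known in the early embryo, and a match of letters is a description and not a binding site. The 22 windows are few and include overlapping windows of the same gene, so their motif shares do not establish a difference from the other sets.

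Single deserts were then taken by a rule, namely the 3 most covered bins of each list and the 3 largest gains and losses of each mark, which gave 14 bins. The most covered desert of control embryos was chr13:68000001-68500000, between BC048507 and Mtrr, which encodes methionine synthase reductase, and it holds the lncRNA genes Urml and Gm8016. H3K27ac covered 115 kb of it in control and 56.0 kb in mutant. H3K4me3 covered 84.5 kb and 35.6 kb, and bases under both marks spanned 70.3 kb and 22.0 kb. It was at once the largest loss of either mark in any desert, yet it still ranked among bins with over 50 kb of H3K27ac in the mutant list. Its widest control H3K27ac peak (13161 bp, chr13:68170861-68184021) was covered to 51.1% by mutant H3K27ac.

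The next loss of H3K27ac lay beside Myc, the gene of a growth-promoting transcription factor. In chr15:62000001-62500000, which holds the lncRNA gene Pvt1 and starts 9.64 kb from Myc, H3K27ac covered 60.8 kb in control and 36.2 kb in mutant. H3K4me3 there was 19.3 kb and 19.6 kb, and the sign of this small difference turned with gaps under 1 kb closed. The widest H3K27ac peak of the bin in control spanned 16275 bp (chr15:62007322-62023596), and mutant peaks covered 26.3% of it. The third loss, chr3:140000001-140500000, holds no lncRNA gene. Its H3K27ac coverage was 22.1 kb in 12 peaks in control and 0.764 kb in 3 peaks in mutant, whereas H3K4me3 covered less than 1 kb in either list.

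The 3 largest gains of H3K27ac were all on chromosome 18. In chr18:55000001-55500000, 7.41 kb from the zinc finger gene Zfp608, H3K27ac covered 11.8 kb in control and 70.6 kb in mutant, and H3K4me3 13.8 kb and 55.1 kb. In the neighbouring bin chr18:55500001-56000000, H3K27ac covered 2.82 kb and 39.5 kb, and H3K4me3 15.3 kb and 31.2 kb. In chr18:47500001-48000000, between the semaphorin gene Sema6a and Eno1b, H3K27ac covered 8.64 kb and 50.4 kb, and H3K4me3 25.8 kb and 36.1 kb. Both marks were higher in the mutant list in all 3 bins. Without chromosome 18 the H3K27ac ratio of all deserts was 1.27.

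Another 3 bins were taken for their coverage in the mutant H3K27ac list or the H3K4me3 lists. In chr4:124000001-124500000, between Rragc, which encodes a GTPase of amino acid sensing, and the POU transcription factor gene Pou3f1, H3K27ac covered 22.8 kb in control and 59.0 kb in mutant, and H3K4me3 29.5 kb and 58.6 kb. In chr3:21500001-22000000, 76.3 kb from Tbl1xr1, whose product is part of a histone deacetylase corepressor complex, H3K27ac covered 33.5 kb and 63.5 kb, and H3K4me3 61.8 kb and 74.4 kb. This bin holds Gm31813 and the widest desert H3K4me3 peak of the control list. In chr10:66500001-67000000, 9.19 kb from Reep3, H3K4me3 covered 68.52 kb and 88.0 kb, the most of any desert in the mutant list. Its H3K27ac was 57.6 kb and 58.5 kb, and the sign of that difference turned with equal numbers of peaks.

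The remaining 5 bins were taken for their H3K4me3 gain, loss or coverage. The largest gain was in chr15:88000001-88500000, between Tafa5 and Zdhhc25, with 26.4 kb in control and 69.7 kb in mutant, while H3K27ac was 20.5 kb and 27.5 kb. In chr4:131000001-131500000, which holds Gm35779 and lies between the cartilage matrix gene Matn1 and the receptor phosphatase gene Ptpru, H3K4me3 covered 28.7 kb and 65.2 kb and H3K27ac 0.839 kb and 21.4 kb. The bin as a whole thus had more H3K4me3 in the mutant list while the window at the Gm35779 promoter was outside the mutant peaks. In chr3:78500001-79000000, 62.5 kb from Rapgef2, a gene of a Rap activator, H3K4me3 covered 44.7 kb and 8.01 kb although H3K27ac was 28.4 kb and 39.3 kb. Its bases under both marks went from 13.03 kb to 0.174 kb. In chr15:74000001-74500000, the third largest H3K4me3 loss, 16.2 kb from the adhesion receptor gene Adgrb1, H3K4me3 covered 31.6 kb and 10.1 kb, and H3K27ac 3.04 kb and 8.61 kb. The last of the 14, chr5:111500001-112000000, 43.0 kb from Mn1, was among the 3 deserts with most H3K4me3 in both lists, at 64.1 kb and 71.6 kb, with H3K27ac of 13.6 kb and 17.2 kb.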

How the data were processed

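Immunoprecipitation and input libraries (16 in all, 8 groups of 2) of control and mutant late 2-cell embryos were grouped by their titles. The authors deposited 4 peak lists whose columns hold chromosome, start and end positions in bp (no score, height or p-value), 1 list for both immunoprecipitation libraries of a group, per the labels. The submitters' processing notes name CASAVA, Trimmomatic, Bowtie2, SAMtools, Picard, MACS2 and deepTools and the builds mm10 and GRCm38. They give no settings here, nor whether libraries were pooled before calling. The lists differ in their narrowest autosomal peak (149 to 182 bp) and smallest gap (602 to 734 bp), which can change peak numbers and widths.

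Positions were taken as 0-based BED intervals and are printed from 1. Bins of 500 kb were cut from position 0 of each autosome, and coding gene bodies came from the RefSeq gene table of GRCm38.p6. Covered bases were counted by intersection, and a peak was placed in the bin of its midpoint. A bin was called with at least 2-fold more covered bases in a list and at least 5 kb there. Bins named were the 3 most covered of each list and the 3 largest gains and losses of each mark, with the 3 longest runs and the widest peak of each list. Promoters came from the RefSeq promoter table of the same build, and a promoter was marked when a peak overlapped its window. Promoters to print were taken from chromosomes other than 18. The breakdowns by coding-gene number, distance, run length, chromosome and promoter, and the printed sequences, were chosen while looking at the data. The desert definition, the lists and the rules were chosen with earlier results of these data known. Shares have 95% Wilson intervals, which cover counting error only. Analyses used Python 3.11.15, numpy 2.4.6, scipy 1.17.1 and matplotlib 3.10.9, and the interval functions were tested on simulated data. Alternatives changed the bin grid, the desert definition, the joining and minimum width of peaks, the length of lists and the thresholds. No genome sequence was used, so repeats and the base content of peaks are not analysed here. Chromosomes X and Y and unplaced scaffolds, outside the definition, were left out.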

Additional observations from a re-analysis of the deposited data

How the results depend on the processing

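No paired analysis was possible because both libraries of a group share 1 deposited list, and no library could be left out for the same reason. Of 352 recomputed values of 24 comparisons, 293 kept their direction and stayed within 1.5 times the value reported (or, for overlap shares, within its Wilson interval), 47 moved further and 12 crossed to the other direction. Leaving out chromosome 18, the chromosome 13 bin at 68 Mb or the bins that start at 3 Mb, 3 settings chosen after seeing the data, left all 24 within those limits. The causes of the changes below were not tested.

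The gene-bearing H3K27ac ratio was 1.004 with peaks less than 1 kb apart merged. The desert H3K27ac median width ratio was 0.954 with peaks under 500 bp dropped, 0.755 in the wider 50% of each list and 2.68 with equal numbers, where the peak number ratio was 0.633. The H3K4me3 ratio of deserts to gene-bearing bins was 0.945 in bins of 1 Mb, 0.908 in bins without any gene and 0.960 at least 100 kb from coding genes. The H3K4me3 peak number ratio was 1.06 in bins of 250 kb, 1.01 on the shifted grid, 1.03 with common limits on gap and width, 1.02 with peaks under 500 bp dropped and 1.07 in the wider 50%, so it has no direction. H3K4me3 coverage relative to gene-bearing bins, control first, was 0.0795 and 0.0722 in bins without any gene and 0.0735 and 0.0812 in the wider 50%.

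The H3K27ac share of broad peaks, mutant over control, was 0.0906 in bins without any gene, 0.419 with merging, 0.424 with common limits, 0.661 with equal numbers and 0.495 above 3 kb. The H3K4me3 value was 3.84 above 10 kb. Called bins changed with the number of bins and the fold. H3K27ac bins higher and lower in mutant numbered 703 and 309 at 250 kb, 42 and 18 at 1 Mb, 16 and 8 without any gene, 126 and 144 with equal numbers, and 104 and 47 at 3-fold. Of all bins, these settings called 26.1% and 9.27% at 250 kb, 14.4% and 2.86% at 1 Mb, 15.1% and 9.67% with equal numbers, and 10.4% and 2.41% at 3-fold. H3K4me3 bins numbered 461 and 327, 13 and 18, and 6 and 7 in the first 3 of these settings and 42 and 60 at 3-fold, with 70 higher at least 100 kb from coding genes and 175 higher at 1.5-fold. Of all bins, 14.9% and 7.44% were called for H3K4me3 at 250 kb, 3.9% and 1.82% at 1 Mb and 2.72% and 2.25% at 3-fold, and 21.8% were higher at 1.5-fold. The share of control peaks that overlap a mutant peak was, for H3K27ac, 15.05% in bins of 250 kb, 11.8% without any gene, 11.96% at least 100 kb from coding genes, 19.7% with peaks under 500 bp dropped, 25.1% in the wider 50%, 10.01% with equal numbers, 6.85% with 50% of the peak covered and 3.16% with reciprocal overlap of 50%. For H3K4me3 it was 19.5% at 250 kb, 14.1% at 1 Mb, 9.93% without any gene, 13.2% at least 100 kb away, 20.2% with peaks under 500 bp dropped, 26.1% in the wider 50%, 11.2% with 50% covered and 5.84% with reciprocal overlap.

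Among differences of single bins, that of H3K27ac in the chromosome 10 bin at 66.5 Mb turned to -2.27 kb in the wider 50% and -2.25 kb with equal numbers, and that of H3K4me3 in the chromosome 15 bin at 62 Mb to -0.508 kb with merging and -3.25 kb in the wider 50%. Depth is unknown, so a peak absent from a list is not a mark absent from the embryos.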
